A study of Mus musculus with 12 samples.

Results

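The proteasome was described here through the genes of its subunits, activators, inhibitor and assembly factors, measured in the hippocampus of mice after a seizure-inducing injection of kainic acid. Members were all genes whose symbol begins with Psma, Psmb, Psmc, Psmd, Psme, Psmf or Psmg, with Psmb8 and Psmb9 left out and described as partners. The rule found 45 genes among the 17097 with a symbol of their own on the array, through 69 probe sets, and the brightest probe set stood for each gene. Of these, 43 passed the filter on low values and 41 of the 43 encode proteasome components or their assembly factors. The other two share the prefix alone: Psmc3ip is a meiotic recombination factor and Psme3ip1 is a binding partner of an activator.

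Kainic acid (KA) excites glutamate receptors, and placed in the amygdala it starts status epilepticus, a prolonged seizure that injures the hippocampus of the same side. KA mice received 0.3 µg in 0.2 µl of phosphate-buffered saline and 6 mg/kg of the sedative lorazepam 40 min later, and control mice received 0.2 µl of that vehicle. The injected side's hippocampus was hybridised to 12 Affymetrix MG-430 PM arrays, 3 per group: control and KA at 8 h, and control and KA at 14 d. Every array title begins with the word Input, which the labels do not explain; they give the material as total RNA. They name no strain, age or sex, and do not say whether controls also received lorazepam. Their time entry runs from 8 to 10 h in the controls and from 11 to 13 h in the KA arrays titled 8 h, so that, if it is correct, time and KA cannot be told apart there. Nothing in the labels ties each array to a separate animal, so the p-values measure the spread between these samples.

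The proteasome is the protease that removes most short-lived and damaged proteins from the cell, usually after ubiquitin has been attached to them. Its 20S core is a stack of alpha rings, which gate the entrance, around beta rings, which hold the catalytic sites. The 19S particle caps the core: its base carries a ring of ATPases that unfold the substrate, and its lid removes ubiquitin. Inflammatory signals such as interferon-gamma induce replacement catalytic subunits, Psmb8, Psmb9 and Psmb10, which form the immunoproteasome, and the activators Psme1 and Psme2, which favour the production of peptides for antigen presentation. In neurons, proteasomes also take part in the turnover of synaptic proteins.

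Start-site windows were searched for the binding motifs of factors known to act on proteasome or immunoproteasome genes. RefSeq's table for the GRCm38.p6 build, with 250 bases before and 50 after each start, held 37 of the 45 members in 41 windows. The windows of 2 members that were lower after KA, Psme1 and Psmb10, and of Psmb5, a constitutive catalytic subunit, are shown, 5′ to 3′ on the gene's strand with matches in capitals. Psme1 lies on the plus strand at chr14:55578244-55578543, Psmb10 on the minus strand at chr8:105938343-105938642 and Psmb5 on the minus strand at chr14:54617946-54618245.
Psme1: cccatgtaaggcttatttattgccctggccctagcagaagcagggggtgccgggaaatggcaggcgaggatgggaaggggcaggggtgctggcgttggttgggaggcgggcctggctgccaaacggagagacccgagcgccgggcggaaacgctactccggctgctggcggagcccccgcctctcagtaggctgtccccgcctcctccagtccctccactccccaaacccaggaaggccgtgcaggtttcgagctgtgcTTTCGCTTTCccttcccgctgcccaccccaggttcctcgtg
Psmb10: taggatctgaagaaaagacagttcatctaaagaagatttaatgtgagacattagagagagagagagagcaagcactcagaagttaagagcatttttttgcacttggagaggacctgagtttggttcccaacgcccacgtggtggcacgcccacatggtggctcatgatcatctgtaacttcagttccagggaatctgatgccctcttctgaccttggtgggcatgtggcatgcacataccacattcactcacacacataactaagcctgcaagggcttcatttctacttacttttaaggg
Psmb5: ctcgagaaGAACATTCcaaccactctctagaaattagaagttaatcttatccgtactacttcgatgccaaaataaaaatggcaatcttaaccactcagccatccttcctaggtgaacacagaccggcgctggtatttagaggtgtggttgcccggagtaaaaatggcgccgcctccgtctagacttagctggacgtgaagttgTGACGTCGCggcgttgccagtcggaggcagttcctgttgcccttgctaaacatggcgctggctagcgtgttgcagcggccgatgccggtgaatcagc

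The capitals in Psme1 mark TTTCGCTTTC, which on the other strand reads as the core of the interferon-stimulated response element, GAAA and GAAA spaced by 2 bases, and begins at base 10 after the start. In Psmb5 they mark the antioxidant response element core TGACNNNGC, found as TGACGTCGC at base -47, and a pair of heat shock units GAANNTTC, found as GAACATTC at base -242. The Psmb10 window, placed at the start in that table, held none of the 6 motifs searched, each on both strands. The antioxidant element core, the site of Nfe2l1 and Nfe2l2, was in 9.76% of the members' windows (Psmb5, Psmb6, Psmd9 and Psmd12) and in 12.4% of all 32851 windows. The interferon-stimulated response element core was in 12.2% of the members' windows (Psmb3, Psmd4, Psmd9, Psme1 and Psmg4) and in 3.44% of all windows. The remaining motifs stood at 4.88% against 7.86% for GAANNTTC, 34.1% against 37.4% for the CCAAT box, 4.88% against 8.3% for the interferon-gamma activated site core TTCNNNGAA, and 0% against 1.79% for the cAMP response element TGACGTCA. These are letter matches in windows of equal length and were not tested as binding sites.

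All values below are log2 intensities as deposited, in which a difference of 1 is a doubling. Array medians lay between 4.90 and 4.95. A gene was called where limma's adjusted p, over 13853 genes, was under 0.05. On the KA 8 h arrays the female-specific RNA Xist read 7.39 to 8.71 and on the other 9 arrays 4.19 to 4.67, while Y-linked Eif2s3y read 5.57 to 6.83 against 7.46 to 8.09 on those arrays. This whole group therefore stands apart in sex-linked RNA, which cannot be told apart from KA, and no 8 h comparison can be made without it. Summed linear intensity of 10 microglial markers ran from 936.4 to 1050 in 8 h controls, 976.3 to 1095 after KA, 1188 to 1313 in 14 d controls and 3046 to 3437 after KA, with 2 markers higher and 3 lower at 8 h and 9 higher at 14 d. The 10 neuronal markers had 3 lower at 8 h and 2 lower at 14 d, and the 7 astrocytic markers had 2 higher at 8 h and 4 higher at 14 d. Of the 5 oligodendrocytic markers 2 were lower at 8 h, and of 6 endothelial markers 2 were higher and 1 lower. Neither list nor the 6 choroid plexus markers had a call at 14 d. Beside these counts, 17.5% of all genes were called at 8 h (7.92% higher and 9.55% lower). At 14 d 2.56% were (1.99% higher and 0.57% lower). In whole tissue, fewer cells of a type and less RNA per cell cannot be told apart. Of the 5 leukocyte markers on the array, Cd3e, S100a8 and Ccr2 lay below background on all 12 arrays. Cd8a read 4.72 to 5.11 and S100a9 5.14 to 5.51, above the highest background of 4.68, and neither was called at 8 h or 14 d. The choroid plexus sum was 914.6 on KA 8 h replicate 3, against 3271 to 5446 on the other arrays.

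At 8 h the proteasome transcripts as a group stayed near their control level. In the main fit, which leaves out the replicate number, 3 of the 43 members measured were lower after KA and none was higher. That is a share of 6.98% against the 17.5% of all genes that were called (7.92% higher and 9.55% lower). The called members were Psme1, a subunit of the interferon-inducible activator, Psmb10, the inducible catalytic subunit, and Psme3ip1. The median change of the 43 was 0.01, beside -0.02 for all genes tested. By limma, 8 of the 43 members and 4011 of the 13853 genes had an unadjusted p under 0.05. Centring each array on its median moved the median of the 41 subunit and assembly genes from 0.01 to -0.01, with 18 above and 23 below 0 in place of 23 and 18, and cyclic loess normalisation moved it to 0.06, with 30 above and 11 below 0. With the replicate number as a block 4 members and 3134 of all genes were called, Psmb2 being the 1 member that was higher. Cyclic loess called 8 members and 2614 of all genes, as described below. The 95% interval of the change lay within 1.5-fold in either direction for 42 of the 43 members (97.7%), and for 85.6% of all genes.

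**Figure D1:**
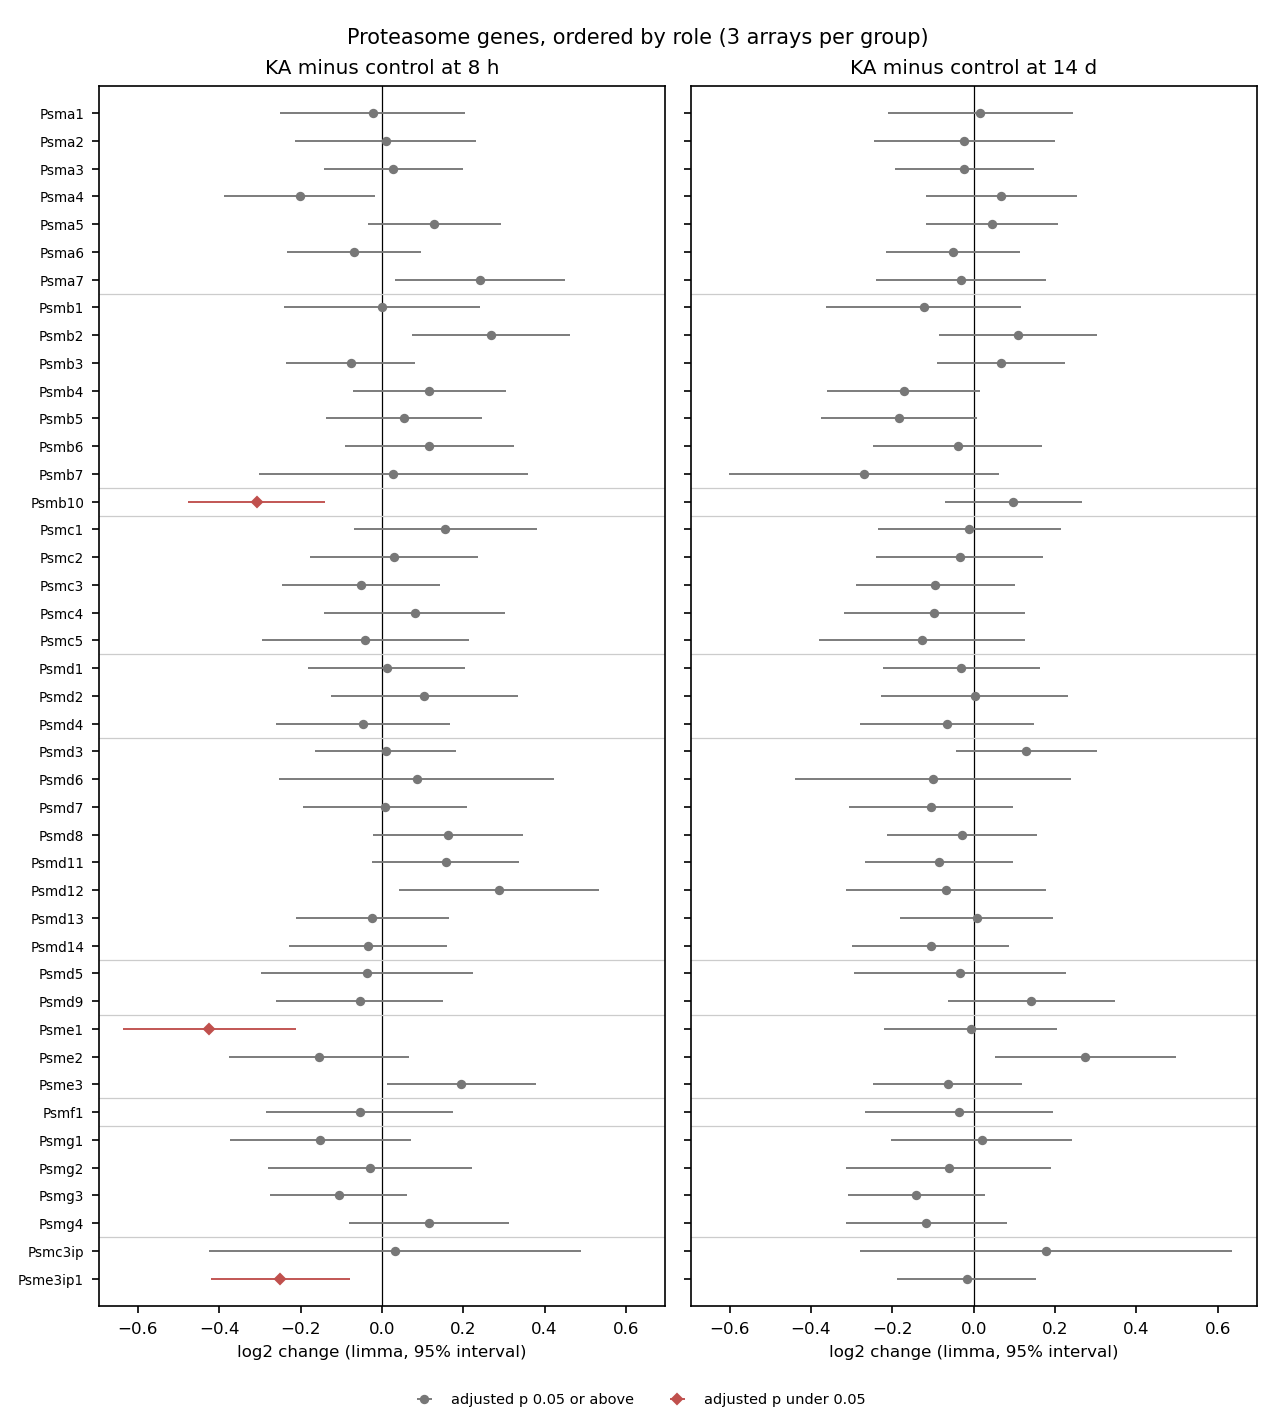
Log2 change of the 43 members, KA minus control at 8 h (left) and 14 d (right), with limma's 95% interval; horizontal lines separate roles from the alpha ring at the top to the genes that share the prefix alone at the bottom. Psme1, Psmb10 and Psme3ip1 at 8 h are the called members (red diamonds) in this fit, which has no replicate block, and no member is called at 14 d; with the block Psmb2 at 8 h is called as well.

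Psme1 encodes the alpha subunit of the activator that docks onto the 20S core in place of the 19S cap. It read 7.52, 7.42 and 7.48 in the 8 h controls and 7.11, 7.14 and 6.90 in the KA arrays. Every KA array was below every control, and the change of -0.42 ± 0.10 (SE, n = 3 per group), 1.34-fold lower, had a limma adjusted p of 0.00781. It remained called in each of the alternatives tried at a threshold of 0.05, with adjusted p up to 0.0395. Its partner Psme2, the beta subunit, read 5.69, 5.31 and 5.49 in controls and 5.41, 5.25 and 5.36 after KA. These ranges overlap, and the change of -0.16 (95% interval -0.38 to 0.07) was not called. Psme3, which forms a separate nuclear activator, read 9.17, 9.00 and 9.07 in controls and 9.27, 9.19 and 9.37 after KA. All KA arrays were above the controls for Psme3, but the change of 0.20 ± 0.09 had an adjusted p of 0.144 by limma. Psme3ip1, a binding partner of Psme3, read 6.98, 6.97 and 7.08 in controls and 6.74, 6.82 and 6.73 after KA. Its change of -0.25 ± 0.08 (limma adjusted p = 0.0423) was lost on leaving out any of 9 of the 12 single arrays, with adjusted p from 0.0507 to 0.156; only leaving out a KA 14 d array kept it.

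Psmb10 takes the place of the trypsin-like subunit Psmb7 in the immunoproteasome. It read 8.39, 8.28 and 8.43 in the 8 h controls and 8.06, 8.06 and 8.05 after KA. The 3 KA arrays nearly coincide and lie below every control. The change of -0.31 ± 0.08, 1.24-fold lower, had a limma adjusted p of 0.0129, which rose to 0.0609 without control 8 h replicate 3. The genes of the constitutive catalytic subunits had no call. Psmb5, the chymotrypsin-like subunit, changed by 0.05 (-0.14 to 0.25), Psmb6, the caspase-like subunit, by 0.12 (-0.09 to 0.33), and Psmb7 by 0.03 (-0.30 to 0.36). The microglial marker P2ry12 was lower by 1.56 and Cd68 higher by 1.5 in the same comparison, and the part of cell composition in the changes of Psme1 and Psmb10 was not tested.

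The other 20S genes showed small differences at 8 h. Psmb2, a structural beta subunit, read 9.96, 10.01 and 10.02 in controls and 10.15, 10.32 and 10.32 after KA. The groups did not overlap, and the change of 0.27 ± 0.09 missed the threshold with a limma adjusted p of 0.0558. With the replicate number as a block the adjusted p was 0.0282, and Psmb2 was called in 9 of the 24 alternatives. Psma7, an alpha ring subunit, read 8.69, 8.91 and 9.01 in controls and 9.09, 9.08 and 9.16 after KA, a change of 0.24 ± 0.10 (limma adjusted p = 0.112). Psma4, another alpha ring subunit, differed the other way, by -0.20 (-0.39 to -0.02, limma adjusted p = 0.133). Across the 14 constitutive 20S genes the median change was 0.03, with 10 above and 4 below 0.

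In the 19S particle none of 16 genes was called at 8 h. By limma, 4011 of the 13853 genes had an unadjusted p under 0.05, and 1 of these 16 did. That gene was Psmd12, a lid scaffold subunit, which read 7.39, 7.52 and 7.61 in controls and 7.73, 7.89 and 7.77 after KA. The groups were separate, and the change was 0.29 ± 0.12 with a limma adjusted p of 0.105. Psmd11, a neighbouring lid subunit, changed by 0.16 (-0.02 to 0.34). Psmc4, a base ATPase, changed by 0.08 (-0.14 to 0.30). Psmd4, the ubiquitin receptor of the base, changed by -0.05 (-0.26 to 0.17), and Psmd14, the lid's deubiquitinating enzyme, by -0.03 (-0.23 to 0.16). The median of the 16 genes was 0.02, with 11 above and 5 below 0; under cyclic loess normalisation all 16 lay above 0 with a median of 0.08, and Psmd8 and Psmd12 were called. Under that normalisation 8 members were called in all, Psma7, Psmb2, Psmd8, Psmd12 and Psme3 joining the 3 named above with higher values after KA, while the median of all genes was -0.00.

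Assembly and inhibition were likewise without a call at 8 h. The 6 assembly factors, which hold subunits in place while the core and base form, had a median change of -0.05 and a range from -0.15 (Psmg1, a core chaperone) to 0.12 (Psmg4). Psmf1, which inhibits the 20S core in vitro, changed by -0.06 (-0.29 to 0.18). Over the 43 members, the groups did not overlap for 12 (27.9%; 7 higher and 5 lower), while 33.8% of all genes had groups without overlap (14.8% higher and 18.9% lower). Psma8, the alpha subunit of testis, read 3.41 to 3.74 and Psmb11, the beta subunit of thymus, 3.76 to 4.02 over the 12 arrays; both lay under the filter and were not tested.

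**Figure D2:**
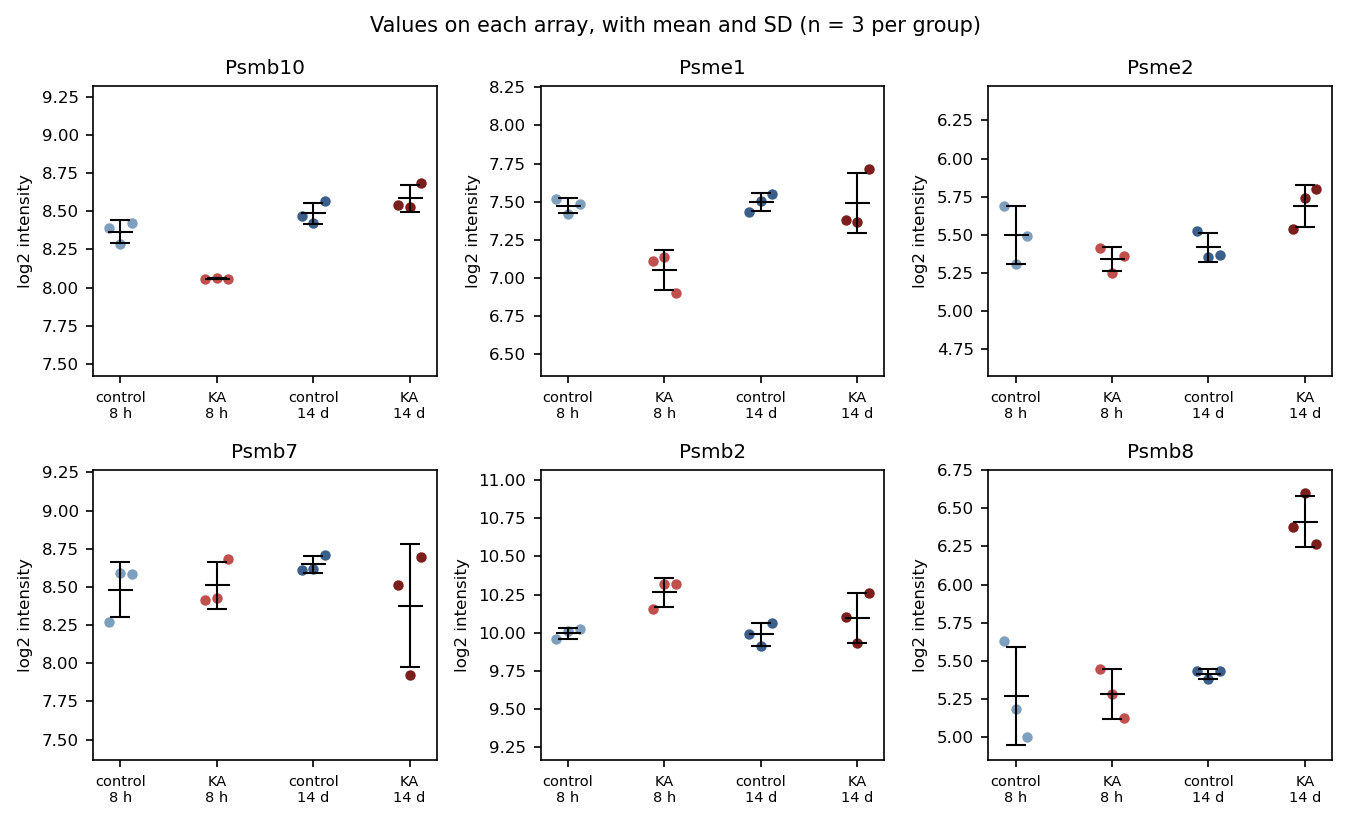
Log2 intensity on each of the 12 arrays for 5 members and Psmb8, with the mean (long bar) and SD of each group (n = 3); each panel spans the same range of log2 units, so panels may be compared in spread but not in level. The KA 8 h points of Psmb10 and Psme1 lie below all their controls, the KA 14 d points of Psmb8 lie above all other arrays, and KA 14 d replicate 2 is the lowest Psmb7 value.

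At 14 d after KA no member was called, whereas 2.56% of all genes were (1.99% higher and 0.57% lower). By limma, 1745 of the 13853 genes and 1 of the 43 members had an unadjusted p under 0.05, the member being Psme2. It read 5.53, 5.36 and 5.37 in the 14 d controls and 5.54, 5.74 and 5.80 after KA. The KA arrays lay above the controls, the lowest of them only just, and the change of 0.27 (0.05 to 0.50) had a limma adjusted p of 0.241. Psme1 returned values of 7.43, 7.51 and 7.55 in controls and 7.38, 7.37 and 7.72 after KA, a change of -0.01 (-0.22 to 0.21). Psmb10 read 8.47, 8.43 and 8.56 in controls and 8.54, 8.53 and 8.69 after KA. The ranges overlap for both, and the change of Psmb10 was 0.10 (-0.07 to 0.27). Groups without overlap were found for 5 members (11.6%), Psmd9 and Psme2 higher and Psmb4, Psmg3 and Psmg4 lower, against 16.5% of all genes (8.02% higher and 8.5% lower). Psmd9 changed by 0.14 on its brightest probe set and by -0.18 on another.

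The catalytic and regulatory genes leaned slightly below 0 at 14 d, and one KA array stood below the rest. Psmb5 changed by -0.18 (-0.38 to 0.01), Psmb7 by -0.27 (-0.60 to 0.06) and Psmb6 by -0.04 (-0.25 to 0.17). For Psmb7 the KA arrays read 8.51, 7.92 and 8.70 against 8.61, 8.62 and 8.71 in controls, with replicate 2 alone far below. The 16 genes of the 19S particle had a median of -0.07, with 3 above and 13 below 0. Among them Psmc4 changed by -0.10 (-0.32 to 0.13), Psmd11 by -0.09 (-0.27 to 0.10), Psmd4 by -0.07 (-0.28 to 0.15) and Psmd14 by -0.11 (-0.30 to 0.09). Psme3 changed by -0.06 (-0.25 to 0.12), Psmf1 by -0.04 (-0.27 to 0.20) and Psmg1 by 0.02 (-0.20 to 0.24). After cyclic loess normalisation 24 of the 41 subunit and assembly genes lay above 0 at 14 d, and 12 did in the deposited values. The interval lay within 1.5-fold for 41 of the 43 members (95.3%), the others being Psmb7 and Psmc3ip, and for 94.4% of all genes.

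KA 14 d replicate 2 was the lowest of its group for 35 of the 41 subunit and assembly genes (85.4%), and for 45.1% of all genes tested. It was the lowest of all 12 arrays for 18 of them, while 14.8% of all genes had their lowest value there. The median deviation of the 41 genes from their means over the 12 arrays was -0.15 on this array and that of all genes was -0.00, whereas KA 14 d replicate 3 stood at 0.11 and 0.02. Without replicate 2 the median change of the 41 genes at 14 d moved from -0.03 to 0.06, the number below 0 from 29 to 15, and still none was called (lowest limma adjusted p 0.395, for Psmb2). Without replicate 3 the median was -0.10 with 32 below 0, and without the third array of each group it was -0.09 with 32 below 0, again with none called. The other single arrays left out gave medians from -0.05 to -0.02. Leaving the same array out raised the members called at 8 h to 5, through Psmb2 and Psmd12; that group enters the shared estimate of spread. The median SD of the members was 0.09, 0.09 and 0.06 in the 8 h control, 8 h KA and 14 d control groups and 0.16 in the 14 d KA group, where that of all genes was 0.13.

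**Figure D3:**
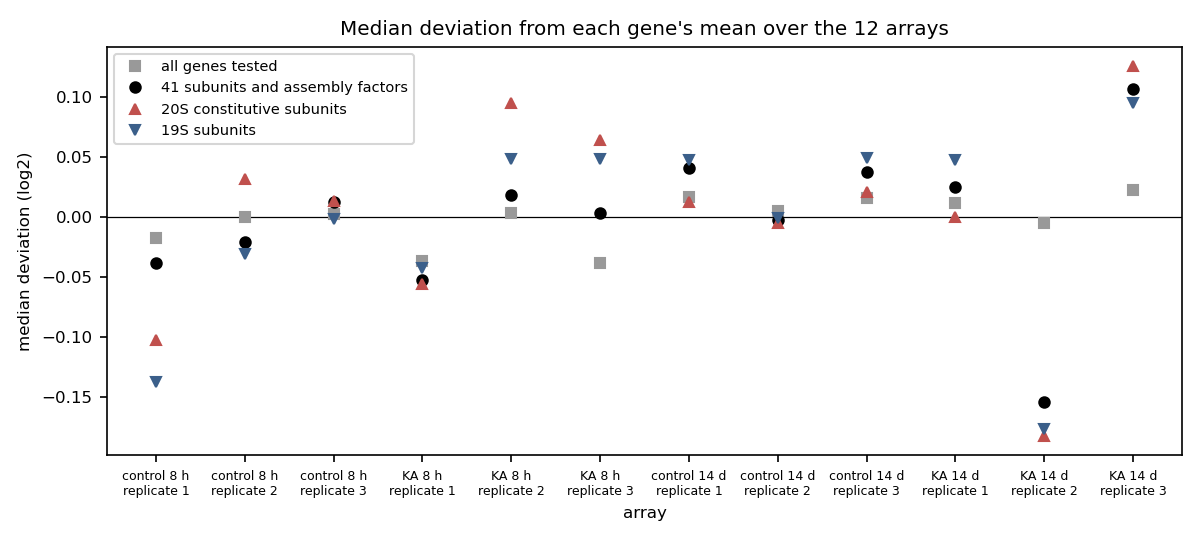
Median deviation (log2) from each gene's mean over the 12 arrays, per array, for all genes tested (grey squares), the 41 subunit and assembly genes (black circles), the constitutive 20S genes (red triangles) and the 19S genes (blue triangles). KA 14 d replicate 2 lies at -0.15 for the 41 genes while the median of all genes there is -0.00; control 8 h replicate 1 also lies low for the 20S (-0.10) and 19S (-0.14) genes.

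The change at 14 d was compared with the change at 8 h directly. This comparison includes the KA 8 h arrays, so their sex-linked RNA and time entry cannot be told apart from KA here either. One member of the 43 differed, Psmb10, by 0.41 ± 0.11 (limma adjusted p = 0.0452), a share of 2.33% against 5.52% of all genes (2.45% positive and 3.06% negative). This call was lost on leaving out any of 10 of the 12 single arrays (adjusted p 0.056 to 0.127). The differences of Psme1, 0.42 (0.12 to 0.72, limma adjusted p = 0.111), and Psme2, 0.43 (0.12 to 0.74, limma adjusted p = 0.115), were of like size and were not called.

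The control groups of the 2 times were also compared with each other. No member was called between control at 14 d and control at 8 h, and 1.8% of all genes were (1.12% higher and 0.679% lower). By limma, 6 of the 43 members and 2044 of the 13853 genes had an unadjusted p under 0.05. Psmc5, a base ATPase, read 8.62, 8.94 and 9.12 in 8 h controls and 9.39, 9.24 and 9.36 in 14 d controls. The groups did not overlap, and the difference of 0.44 ± 0.12 had an adjusted p of 0.0757 by limma; it was called in 6 of the 24 alternatives. The controls did not overlap for 13 members (30.2%), 12 of them higher at 14 d, beside 25.1% of all genes (15.3% higher). Control 8 h replicate 1 was the lowest of its group for 25 of the 41 subunit and assembly genes (61%), and for 40.1% of all genes. Without that array the median change of the 41 genes at 8 h moved from 0.01 to -0.03, with 17 above and 24 below 0. Psmc2, another base ATPase, differed by 0.29, and Psmd7, the lid partner of Psmd14, by 0.28. The other Psmd7 probe sets above the filter differed by 0.15 and -0.16. These comparisons share their control samples with those of KA above.

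The wider ubiquitin-proteasome system was read from a list of 32 genes, of which 20 were named on the array and 19 tested. At 8 h 4 were higher and 1 lower, where 7.92% of all genes were higher and 9.55% lower, and at 14 d none was called, where 2.56% of all genes were. Txnl1, a thioredoxin-like protein bound to the 19S particle, read 7.03, 7.01 and 6.86 in controls and 7.80, 7.84 and 7.87 after KA. All KA arrays exceeded all controls, by 0.87 ± 0.09 (limma adjusted p = 3.63e-06), but its other probe set above the filter changed by 0.18 ± 0.13 (limma adjusted p = 0.451). The average of all its probe sets, those under the filter included, changed by 0.29 (limma adjusted p = 0.00504). Bag3, a co-chaperone that directs damaged proteins to autophagy, read 4.13, 4.31 and 4.47 in controls and 5.48, 4.81 and 4.78 after KA. The groups were separate, with KA replicate 1 highest, and the change of 0.71 ± 0.16 had an adjusted p of 0.00491 by limma. Only 1 of the 3 control arrays was above its background probe sets for Bag3, so the size of this change rests on controls near background.

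The regulators of proteasome genes differed from each other. Nfe2l2, the factor of the oxidative stress response, read 4.33, 4.22 and 4.16 in controls and 4.74, 4.64 and 4.61 after KA. None of its 3 control arrays was above the array's background probe sets, whose mean ran from 4.16 to 4.47 there, and all 3 KA arrays were. Against the higher of each control's own value and its background, mean Nfe2l2 was higher after KA by 0.32, or 1.25-fold. This is a difference of means given without an interval, so a smaller change is not excluded. For the values as deposited the change was 0.43, with limma's interval from 0.22 to 0.63 (limma adjusted p = 0.00646). Nfe2l1, which induces proteasome genes when proteasomes are inhibited, read 7.60, 7.48 and 7.66 in controls and 7.19, 7.26 and 7.36 after KA. Its change of -0.31 ± 0.09 (limma adjusted p = 0.024) was lost without control 8 h replicate 1 or 3 or KA 8 h replicate 1 or 2, with adjusted p from 0.0589 to 0.102. Nploc4, a cofactor of the p97 segregase that delivers substrates, was higher by 0.29 ± 0.09 (limma adjusted p = 0.0336), a call lost without control 8 h replicate 2 or 3 or KA 8 h replicate 2 or 3 (adjusted p 0.0741 to 0.112), without the third arrays (0.148) and after centring each array on its median (0.0553). Pomp, the maturation factor of the core, changed by 0.02 (-0.18 to 0.22) at 8 h and by -0.02 (-0.22 to 0.18) at 14 d.

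**Figure D4:**
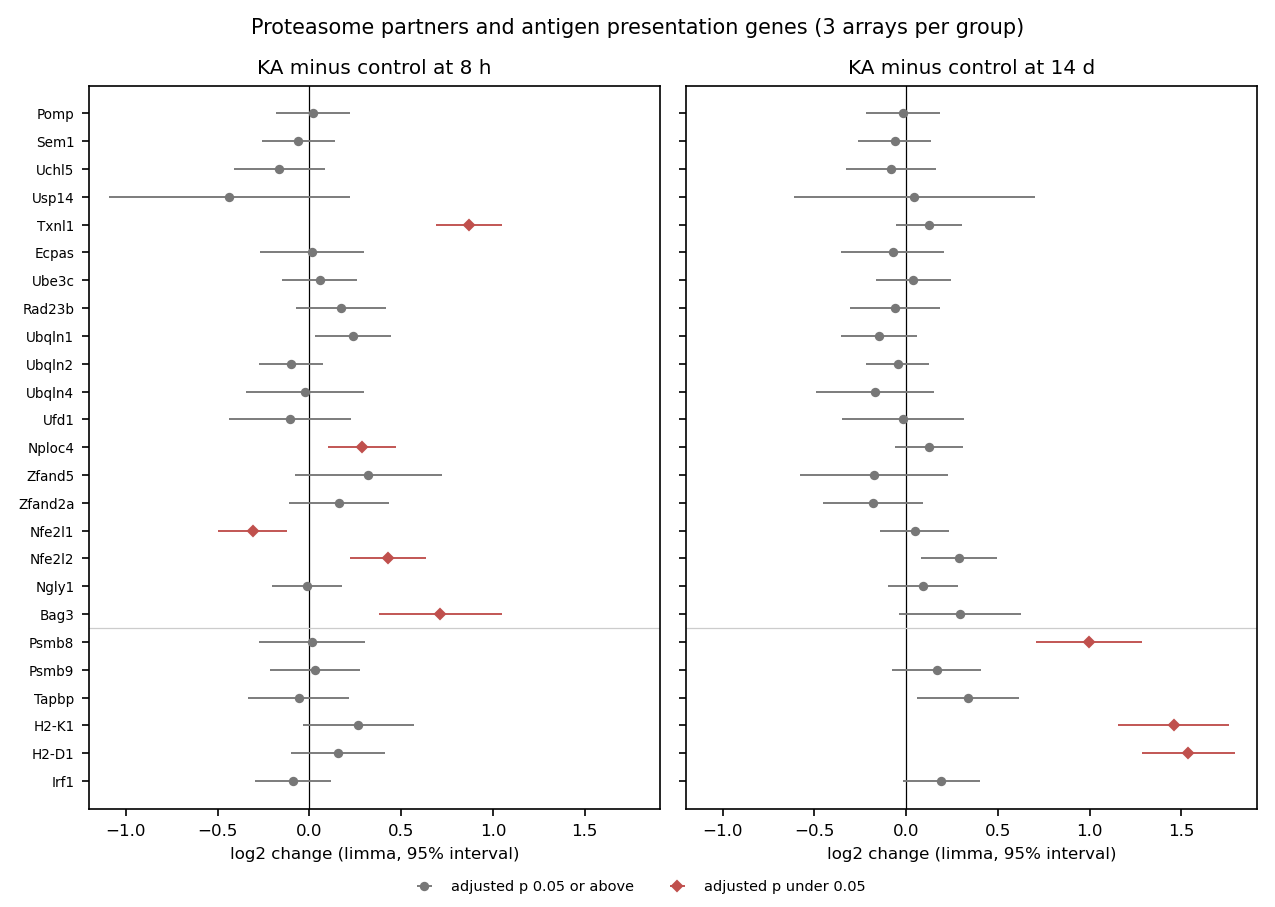
Log2 change with limma's 95% interval, KA minus control at 8 h (left) and 14 d (right), for the 19 ubiquitin-proteasome partners (above the line) and 6 genes of the inducible proteasome and antigen presentation (below it). Called genes (red diamonds) at 8 h are partners alone, and at 14 d they are Psmb8, H2-K1 and H2-D1.

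Of 12 listed genes of the inducible proteasome and antigen presentation, 8 were named on the array and 6 tested. None was called at 8 h, where 17.5% of all genes were, and 3 were higher at 14 d, where 1.99% of all genes were. By limma, 0 of the 6 had an unadjusted p under 0.05 at 8 h, where 4011 of the 13853 genes did. Psmb8, the inducible counterpart of Psmb5, read 5.43, 5.38 and 5.44 in the 14 d controls and 6.37, 6.60 and 6.27 after KA. The KA arrays lay far above the controls, by 1.00 ± 0.14 (limma adjusted p = 0.000485), and at 8 h the change was 0.01 (-0.28 to 0.30). Psmb9, the counterpart of Psmb6, read 6.53, 6.66 and 6.55 in controls and 6.70, 6.97 and 6.55 after KA. Its ranges overlap, and the change of 0.17 (-0.08 to 0.41) was not called. The other Psmb9 probe sets above the filter changed by 0.10 and -0.11. The class I antigen-presenting heavy chains H2-K1 and H2-D1 were higher by 1.46 ± 0.14 and 1.54 ± 0.12 (limma adjusted p = 1.4e-05 and 1.02e-06); these near-identical genes can share probe signal. All probe sets of each gene were also averaged, any under the filter included. The 14 d changes were then smaller but still called, at 0.41 for H2-D1, 0.96 for H2-K1 and 0.54 for Psmb8 (limma adjusted p = 0.00319, 0.000287 and 0.0044). The summed microglial markers given above were higher on the same arrays, and their part in these changes was not tested.

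Where a gene had several probe sets, these were compared. With every named probe set tested alone, 58 probe sets of members lay above the filter, and the same 3 genes, Psmb10, Psme1 and Psme3ip1, were called at 8 h, all lower, and none at 14 d. The second probe set of Psme3 changed by 0.25 ± 0.08 at 8 h (limma adjusted p = 0.0587), near the 0.20 of the first. Among the 10 members with several probe sets above the filter, 4 had changes of both signs at 8 h, 5 at 14 d and 6 between controls.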

How the data were processed

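Hippocampal RNA was amplified from 5 ng over 22 cycles and 8 µg of cDNA was hybridised, per the labels' protocols. The deposited values are log2 intensities per probe set; RMA and affy are named by the submitters' processing notes, with versions not given in the sources used here. Of 45141 probe sets, 28898 had 1 gene symbol in the platform annotation, 551 several and 15588 none; Psmc6, Psmd10 and Psme4 were not analysed here. The brightest probe set per gene was kept, and genes above the array's 30th percentile (4.08 to 4.15) on at least 3 arrays were tested. One limma 3.58.1 model (R 4.3.3) held all 12 arrays as 4 groups with 8 residual degrees of freedom, with Benjamini-Hochberg adjustment over all genes. The script was tested on simulated data, where log2 changes of 0.5 were called for 73.1% of the genes given them at 8 h and 68.7% at 14 d. Smaller changes were not simulated. Genes are named by this rule: called members, a fixed set of subunits, called partners, Psmb8, Psmb9, Pomp and Nfe2l1; the other members with values, such as Psmb2, Psma7, Psma4, Psmd12, Psmd8, Psmc2, Psmc5 and Psmd7, were chosen after their values were seen. Members, lists and motifs were chosen with earlier results of these data known, and 2 interferon motifs and the test of every probe set were added after seeing the data. Same-numbered arrays correlated in their deviations from group means by 0.155, 0.138 and 0.413 at 8 h, so the numbers may pair the 8 h arrays. The main fit, its intervals and the figures take no account of such a pairing. The fit with the replicate number as a block ties all 12 arrays by number, so no fit pairs the 8 h arrays alone. Array number limits the precision. Figures were drawn with matplotlib 3.10.9.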

Additional observations from a re-analysis of the deposited data

Results flagged for a closer look

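The following changes at 14 d differed from the changes at 8 h by limma's test of the difference itself, given on the log2 scale with its adjusted p. Each includes the KA 8 h arrays, whose sex-linked RNA and time entry cannot be told apart from KA. Psmb10, the inducible catalytic subunit, differed by 0.41 (limma adjusted p = 0.0452), a call lost in 12 of its 23 alternatives. Psmb8, its inducible partner, differed by 0.98 (limma adjusted p = 0.00609). The antigen-presenting H2-D1 differed by 1.38 (limma adjusted p = 0.000127) and H2-K1 by 1.19 (limma adjusted p = 0.002). Txnl1, bound to the 19S particle, differed by -0.75 (limma adjusted p = 0.00144), and with all its probe sets averaged, those under the filter included, by -0.29 (limma adjusted p = 0.0706). Averaged in the same way, the differences were 0.54 for Psmb8, 0.37 for H2-D1 and 0.78 for H2-K1, all still called (limma adjusted p = 0.0207, 0.0311 and 0.0112).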

How the results depend on the processing

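No named change turned its sign while called, and Psme1 at 8 h, Psmb8, H2-K1 and H2-D1 at 14 d and Txnl1, Bag3 and Nfe2l2 at 8 h kept their call in every alternative that could be run for them. Members called at 8 h numbered 3, and 5 where each gene's probe sets were averaged, 8 after cyclic loess, 7 with array weights, 1 without the third array of each group and 1 at an adjusted p under 0.01; leaving out single arrays gave 1 (without control 8 h replicate 3) to 5 (without KA 14 d replicate 2). Their median change at 8 h was 0.0556 after cyclic loess and -0.0321 to 0.0491 over single arrays left out. At 14 d the count of members stayed at 0 throughout. In the difference of changes array weights called 3 members, and the third arrays left out or the stricter p gave 0; leaving out single arrays gave 0 for 10 of the 12 and 1 for control 14 d replicate 3 and KA 14 d replicate 2. Between controls 1 member was called after cyclic loess and without the third arrays, 3 with array weights, and 0 to 1 without single arrays. Over all genes, array weights called 3293 at 8 h, 2099 at 14 d, 2168 in the difference and 1336 between controls. Averaged probe sets called 2588 genes at 8 h, cyclic loess 2614 and the fit without the third arrays 1849, where the main fit called 2420. The stricter p called 1352 at 8 h, 170 at 14 d, 346 in the difference and 64 between controls, and the fit of the control groups alone called 541. Leaving out single arrays gave 1658 to 2747 genes at 8 h, 196 to 454 at 14 d, 508 to 899 in the difference and 86 to 421 between controls.

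With the replicate number as a block, 4 members were called at 8 h, 0 at 14 d, 1 in the difference of changes (Psmb10) and 1 between controls (Psmc5); all genes called were 3134, 599, 1214 and 570. At 14 d same-numbered arrays correlated by 0.164, 0.0684 and 0.463, against 0.155, 0.138 and 0.413 at 8 h. The numbers may therefore pair the 14 d arrays too, and the block tied the arrays of both times. The causes of these shifts were not tested. The filter at the array median left out Bag3 and Nfe2l2, averaging probe sets left out Nfe2l2, and leaving out probe sets ending in x_at or s_at left out H2-K1 and H2-D1, so these alternatives gave no value.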
